A study of Mus musculus with 12 samples.

Results

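The genes described here encode the enzymes that start the catabolism of the branched-chain amino acids leucine, isoleucine and valine, together with enzymes of the leucine branch. The members are Bcat1, Bcat2, Bckdha, Bckdhb, Dbt, Bckdk, Ppm1k, Ivd, Mccc1 and Mccc2, and their rows were taken from the deposited normalized counts. All 10 of the 10 genes were among the 14159 listed genes, and all 10 were among the 13404 genes that passed the filter on low values. RNA-seq of inguinal white adipose tissue (iWAT, a subcutaneous fat depot) covered 12 libraries, with 3 biological replicates (numbered 0, 1 and 2 in the labels) in each of 4 groups. Atf4AKO mice carried floxed Atf4 alleles and the Adipoq-Cre transgene, which deletes Atf4 in adipocytes, and Atf4WT mice were Atf4 fl/fl littermates on the same C57BL/6 background. Each genotype was sampled at room temperature (RT) and after 24 h of cold exposure. The whole tissue was sequenced, so cells other than adipocytes keep Atf4 and add their RNA to each value, and the age and sex of these mice are not given in the sources used here.

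Branched-chain amino acids are first transaminated to branched-chain keto acids by BCAT1 in the cytosol or BCAT2 in mitochondria. The mitochondrial branched-chain keto acid dehydrogenase (BCKDH) complex then decarboxylates the keto acids in an irreversible step. Its E1 component is built of the alpha subunit Bckdha and the beta subunit Bckdhb, its E2 core is Dbt, and its E3 component is Dld, which it shares with other dehydrogenase complexes. The kinase Bckdk phosphorylates E1 and inactivates the complex, and the phosphatase Ppm1k removes the phosphate. Of the leucine branch, Ivd encodes isovaleryl-CoA dehydrogenase, and Mccc1 and Mccc2 encode the subunits of the biotin-dependent methylcrotonyl-CoA carboxylase. Adipose tissue is known to take up these amino acids and to oxidise them, more so in thermogenic fat.

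The reads of the 14159 listed genes summed to between 25719476 and 29105147 per library. No listed gene was without reads in any library, which may reflect how the genes were chosen for the list. Atf4 itself was at 4107 to 5669 normalized counts in Atf4WT and 1470 to 1639 in Atf4AKO iWAT at RT, and at 5756 to 7644 and 788 to 1578 after cold exposure. Ucp1, the uncoupling protein of thermogenic fat, was at 204 to 685 in Atf4WT iWAT at RT and 73632 to 94771 after cold exposure. All 7 white adipocyte markers were listed, with a summed level of 654724 to 1121899 normalized counts over the 12 libraries. Fabp4, at 314385 to 667137, was the largest part of this sum. The single markers went different ways. In both genotypes the means of Fabp4 and Pnpla2 were higher after cold exposure, and those of Adipoq, Plin1, Lep and Lipe were lower. The mean of Cidec hardly differed between RT and cold exposure (66231 against 67085 in Atf4WT, 73912 against 74207 in Atf4AKO iWAT). Some libraries stood apart in other cell types. The 5 listed skeletal muscle markers of 8 summed to 81505 in Atf4WT RT replicate 2 and to 29061 in Atf4WT cold replicate 0, to 3063 in Atf4AKO cold replicate 1, and to at most 845 in the others. The 7 listed B cell markers of 8 summed to 3017 to 10464 in the cold-exposed Atf4WT libraries and to 3073 in Atf4WT RT replicate 2, against at most 381 in the other libraries. The 9 T cell markers summed to 884, 5838 and 7135 in the cold-exposed Atf4WT libraries and to at most 764 in the others. The markers of fibroblasts or progenitors (6 of 6 listed) summed to 67525 to 89874 at RT and 19999 to 54112 after cold exposure. In whole tissue, fewer cells of a type and less RNA per cell cannot be told apart.

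In the mm10 assembly the members lie on chromosomes 2, 3, 6, 7, 9 and 13 (GENCODE gene positions). Bcat1 (NM_007532) spans chr6:144993835-145076184, Bcat2 (NM_009737) chr7:45570153-45589711, Bckdha (NM_007533) chr7:25629946-25658981, Bckdhb (NM_001305935) chr9:83925145-84124240 and Dbt (NM_010022) chr3:116513070-116549981. Bckdk (NM_009739) spans chr7:127904082-127910221, Ppm1k (NM_175523) chr6:57506502-57535468, Ivd (NM_019826) chr2:118861954-118882909, Mccc1 (NM_023644) chr3:35959312-36000678 and Mccc2 (NM_030026) chr13:99948530-100015639. Genes annotated as antisense overlap Bcat1, Bcat2, Bckdhb and Mccc1. Other genes on the opposite strand overlap Bckdha (B3gnt8, protein-coding), Dbt (Gm4596, a processed pseudogene) and Ppm1k (Gm45193, a processed transcript). The strand setting of the read counting is not given in the sources used here, so part of the reads of all these members could come from the other strand. Promoter windows of RefSeq (GRCm38.p6, 250 bases before to 50 after a start) matched 9 of the 10 members. The bases upstream of the outermost RefSeq start are shown for members that passed the test in a cold comparison below and have a window. This choice goes by the call alone, and not by how well the call held when libraries were left out. Dbt also passed but has no window. The RefSeq starts used here can differ from the GENCODE spans above. The printed Bcat1 sequence ends inside the GENCODE span of Bcat1, which reaches chr6:145076184. Each sequence is 5′ to 3′ on the strand of the gene, and capitals mark the CCAAT box on either strand (CCAAT or ATTGG).
Bckdhb, chr9:83924887-83925110, plus strand: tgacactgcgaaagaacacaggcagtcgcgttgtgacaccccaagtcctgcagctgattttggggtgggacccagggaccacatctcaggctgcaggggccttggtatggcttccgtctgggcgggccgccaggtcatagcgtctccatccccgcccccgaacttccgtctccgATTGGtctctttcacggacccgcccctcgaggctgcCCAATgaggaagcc
Bcat1, chr6:145076158-145076407, minus strand: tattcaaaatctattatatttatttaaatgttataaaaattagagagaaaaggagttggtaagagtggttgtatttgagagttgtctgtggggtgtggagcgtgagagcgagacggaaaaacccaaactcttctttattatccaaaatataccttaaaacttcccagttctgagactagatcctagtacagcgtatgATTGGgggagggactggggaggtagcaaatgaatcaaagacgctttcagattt
Ppm1k, chr6:57535553-57535737, minus strand: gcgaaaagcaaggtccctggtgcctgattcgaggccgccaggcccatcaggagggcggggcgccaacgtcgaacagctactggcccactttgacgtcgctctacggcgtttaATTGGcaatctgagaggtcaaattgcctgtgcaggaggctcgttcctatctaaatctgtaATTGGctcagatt
Mccc2, chr13:100015640-100015889, minus strand: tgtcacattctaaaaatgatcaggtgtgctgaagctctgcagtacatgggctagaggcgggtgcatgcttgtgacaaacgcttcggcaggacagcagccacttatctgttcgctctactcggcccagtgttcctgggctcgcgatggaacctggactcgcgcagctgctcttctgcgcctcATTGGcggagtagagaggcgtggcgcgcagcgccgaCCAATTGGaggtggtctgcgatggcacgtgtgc

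A CCAAT box was found on either strand in the windows of 7 of the 9 members, namely Bcat1, Bckdhb, Bckdk, Ivd, Mccc1, Mccc2 and Ppm1k, which by window is 8 of the 12 windows of these members against 37.4% of all 32851 windows. In Mccc2 a CCAAT on each strand share letters in the run CCAATTGG, at -33 and -30 counted from the base after the printed sequence, with another match at -69. Counted in the same way, the Bckdhb matches in the printed sequence begin at -50 and -14, the Bcat1 match at -53, and the Ppm1k matches at -73 and -13. A second Bckdhb window, not printed, held 1 further match, 4 bases after its start. Ivd, of which no change was called, held 4 matches, all on the minus strand of its window (-131, -77, -47 and -23 from the start of that window's transcript). The C/EBP-ATF response element TGATGNAA, to which ATF4 binds with C/EBP partners, was in 3.97% of all windows and in 0 of the 9 members with a window. The cAMP response element TGACGTCA (1.79% of all windows) and the estrogen-related receptor element TCAAGGTCA (0.423%) were also in 0 of the 9, searched on both strands. A match of these letters does not show binding, and a missing match says only that the letters are not in this window.

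To ask how cold exposure affects this pathway, cold-exposed iWAT was compared with iWAT at RT in each genotype. The transcripts of the E1 beta subunit Bckdhb and of the E2 core Dbt rose in both genotypes, and Bcat1 fell in both. Mccc2 fell in Atf4WT iWAT and Ppm1k fell in Atf4AKO iWAT, while Bckdha, Bckdk, Ivd, Mccc1 and Bcat2 did not pass the test in either genotype. The threshold was a limma p-value, adjusted across the 13404 genes by the Benjamini-Hochberg method, of under 0.05. In Atf4WT iWAT 4 of the 10 members passed, against 31.9% of all tested genes, 2 of them higher (17.0% of all genes) and 2 lower (14.9%). In Atf4AKO iWAT 4 of the 10 passed, against 25.9% of all genes, 2 of them higher (14.8%) and 2 lower (11.0%). These shares are not read as a result about the list. The median member differed by -0.13 in Atf4WT and -0.06 in Atf4AKO iWAT on the log2 scale, beside medians of 0.00 and -0.03 over all tested genes. Cold-exposed and RT libraries were fully separated for 6 of the 10 members in Atf4WT iWAT, against 46.8% of all tested genes, and for 4 of the 10 in Atf4AKO iWAT, against 41.7%.

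**Figure D1:**
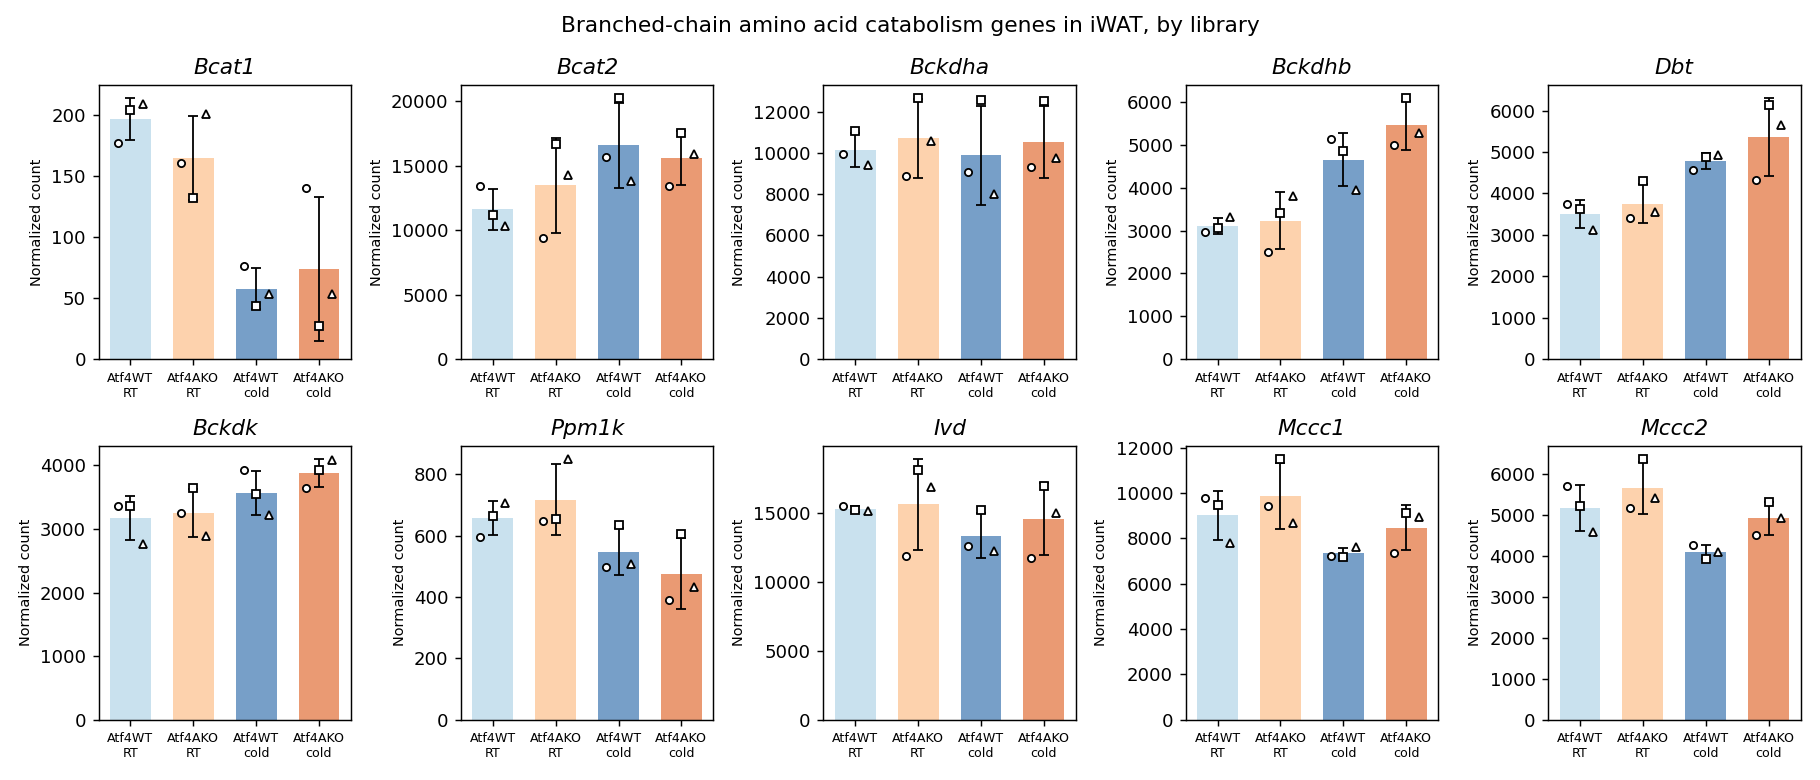
Normalized counts (y axis, from 0) of the 10 members in each library, by group (x axis). Bars are means of 3 libraries, error bars are SD, and circles, squares and triangles are replicates 0, 1 and 2; Bckdhb and Dbt are higher in all cold-exposed libraries than in the RT libraries of the same genotype, and Bcat1 is lower in all but the Atf4AKO cold replicate 0 at 140.3.

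Bcat2, the mitochondrial aminotransferase, was the more abundant of the aminotransferase transcripts per length. Its normalized counts were 13399, 11149 and 10329 in Atf4WT iWAT at RT and 15667, 20239 and 13812 after cold exposure, in the order of replicates 0, 1 and 2. The cold-exposed libraries were all higher, by a narrow margin between 13399 and 13812, and the change of 0.50 ± 0.21 on the log2 scale (SE) missed the threshold (adjusted p = 0.090). In Atf4AKO iWAT Bcat2 was at 9422, 16672 and 14283 at RT and at 13391, 17487 and 15873 after cold exposure. These groups overlapped, with a log2 difference of 0.24 ± 0.21 (adjusted p = 0.42). Under DESeq2 on the recovered reads the Atf4WT change of Bcat2 passed (log2 0.51, adjusted p = 0.046), as it did without Atf4AKO RT replicate 0 (log2 0.50, adjusted p = 0.041).

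Bcat1, the cytosolic aminotransferase, was the least expressed member. Its normalized counts were 177, 204 and 209.5 in Atf4WT iWAT at RT and 76.0, 43.3 and 53.7 after cold exposure, so that all cold-exposed libraries were lower. The fold change was 3.46-fold lower (log2 -1.79 ± 0.46, adjusted p = 0.013), and the gene passed in each of the 23 alternative settings (adjusted p of 0.00078 to 0.049). Atf4AKO iWAT had 161, 132 and 201 at RT and 140.3, 27.2 and 53.7 after cold exposure. Here replicate 0 of the cold group lay within the RT range, and the other two libraries were far below it. The change of -1.44 ± 0.46 passed (adjusted p = 0.040), but not with edgeR on the recovered reads (log2 -1.19, adjusted p = 0.085), nor in a fit of only the 2 groups compared (adjusted p = 0.0998), nor without Atf4AKO cold replicate 1 (log2 -0.89, adjusted p = 0.13), Atf4AKO cold replicate 2 (-1.37, 0.098), or any of Atf4AKO RT replicates 0 (-1.45, 0.096), 1 (-1.59, 0.060) and 2 (-1.29, 0.11). It also missed the threshold without Atf4WT RT replicate 0 (0.056), Atf4WT RT replicate 1 (0.055) or Atf4WT cold replicate 2 (0.0505), where the Atf4AKO libraries and the log2 change stayed as they were. Without Atf4AKO cold replicate 0 the change was -2.06 (adjusted p = 0.0021).

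The summed markers of fibroblasts or progenitors were also lower after cold exposure, while those of macrophages overlapped. The fibroblast or progenitor markers summed to 80135, 82403 and 83645 in Atf4WT iWAT at RT and 54112, 19999 and 39432 after cold exposure, and to 89874, 67525 and 73623 and to 41457, 28413 and 40995 in Atf4AKO iWAT. Of the single markers, Dpt, Col1a1 and Lum were lower in all cold-exposed libraries of each genotype. Pi16 and Dpp4 overlapped in both genotypes, and Pdgfra in Atf4AKO iWAT. The 8 listed macrophage markers of 9 summed to 18589, 6170 and 17646 in cold-exposed Atf4WT iWAT, against 18297 to 24078 at RT. In Atf4AKO iWAT they summed to 16531, 3432 and 20965 after cold exposure, against 16043 to 32569 at RT. The macrophage sums thus overlapped in both genotypes, with replicate 1 of each cold group far below the RT range. In both cold groups replicate 1 was the lowest library for Bcat1, for the fibroblast sum and for the macrophage sum. In Atf4AKO iWAT this did not hold for Dpt of the fibroblast list, which was highest in cold replicate 1 (22693). Other libraries did not follow this order. Atf4AKO cold replicates 0 and 2 had nearly equal fibroblast sums but Bcat1 at 140.3 and 53.7. Their single markers differed both ways, with Dpt, Col1a1 and Lum higher in replicate 0 and Pdgfra, Pi16 and Dpp4 higher in replicate 2. In Atf4AKO iWAT at RT Bcat1 was highest in replicate 2 and the fibroblast sum in replicate 0. The part of these cells in the Bcat1 difference was not tested. Among 11841 genes averaging 50 or more normalized counts, the 3 whose centred log2 levels over the 12 libraries differed least from those of Bcat1 were Kdelr3, Igsf10 and Cd109, with root mean square differences of 0.30, 0.31 and 0.34, beside 0.97 for Bcat1 about its own mean. For Bcat2 they were Prodh (0.14), Iba57 (0.15) and Sfxn1 (0.15), beside 0.31 for Bcat2 about its own mean.

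Of the BCKDH complex, Bckdhb and Dbt rose in both genotypes while no change of Bckdha was called. Bckdhb was at 2963, 3061 and 3317 normalized counts in Atf4WT iWAT at RT and at 5147, 4865 and 3956 after cold exposure. In Atf4AKO iWAT it was at 2491, 3413 and 3803 at RT and at 5000.0, 6098 and 5279 after cold exposure. Cold-exposed and RT libraries did not overlap in either genotype. Bckdhb rose 1.49-fold in Atf4WT (log2 0.57 ± 0.15, adjusted p = 0.015) and 1.71-fold in Atf4AKO iWAT (log2 0.77 ± 0.15, adjusted p = 0.0043). The Atf4AKO call held in each of the 22 alternative settings (adjusted p of 4.3e-05 to 0.020). The Atf4WT call was just missed without Atf4WT RT replicate 0 (adjusted p = 0.052), Atf4WT cold replicate 0 (0.0505) or Atf4WT cold replicate 1 (0.051), with log2 changes of 0.54, 0.50 and 0.54.

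Dbt, the E2 core, was at 3749, 3630.0 and 3112 in Atf4WT iWAT at RT and at 4561, 4868 and 4928 after cold exposure. In Atf4AKO iWAT it was at 3409, 4303 and 3554 at RT and at 4319.8, 6128 and 5651 after cold exposure. The groups did not overlap in either genotype, although the lowest cold-exposed Atf4AKO library was almost level with the highest RT library. Dbt rose 1.37-fold in Atf4WT (log2 0.46 ± 0.13, adjusted p = 0.024) and 1.42-fold in Atf4AKO iWAT (log2 0.51 ± 0.13, adjusted p = 0.018). The Atf4WT call was lost without Atf4WT RT replicate 2 (log2 0.37, adjusted p = 0.080), Atf4WT cold replicate 1 (0.44, 0.065) or Atf4WT cold replicate 2 (0.43, 0.066). The Atf4AKO call was lost without Atf4AKO RT replicate 0 (0.44, 0.073), Atf4AKO RT replicate 2 (0.47, 0.054), Atf4AKO cold replicate 1 (0.40, 0.072) or Atf4AKO cold replicate 2 (0.46, 0.059), and in a fit of only these 2 groups (0.056).

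Bckdha was at 9943, 11083 and 9439 in Atf4WT iWAT at RT and at 9071, 12598 and 8028 after cold exposure. The Atf4AKO libraries were at 8865, 12678 and 10612 at RT and at 9324, 12537 and 9772 after cold exposure. The ranges overlapped almost wholly, and the log2 differences were -0.06 (95% confidence interval -0.46 to 0.34) in Atf4WT and -0.02 (-0.42 to 0.38) in Atf4AKO iWAT, with adjusted p-values of 0.83 and 0.94. The ratio of Bckdhb to Bckdha, in normalized counts per kb of merged exons, was 0.291 to 0.370 in Atf4WT and 0.283 to 0.377 in Atf4AKO iWAT at RT, and 0.406 to 0.597 and 0.512 to 0.568 after cold exposure. The ratio of Dbt to Bckdha was 0.186 to 0.214 and 0.190 to 0.218 at RT, and 0.219 to 0.348 and 0.263 to 0.328 after cold exposure. Both ratios were higher in every cold-exposed library than in every RT library. For Dbt to Bckdha the margin was very narrow, between 0.218 in an Atf4AKO RT library and 0.219 in a cold-exposed Atf4WT library. They are given as a description, since they were looked at after the levels were known.

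**Figure D2:**
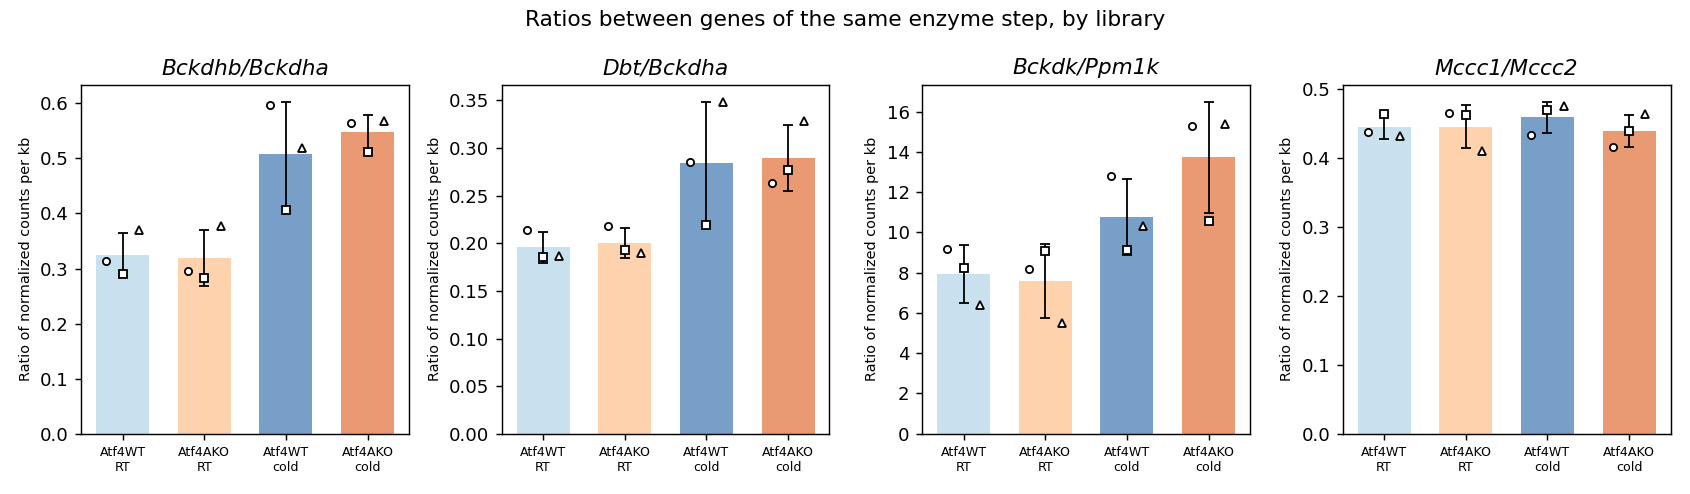
Ratios of normalized counts per kb of merged exons (y axis, from 0) between genes of the same step, by group (x axis). Bars are means of 3 libraries, error bars are SD, and circles, squares and triangles are replicates 0, 1 and 2; Bckdhb/Bckdha runs from 0.283 to 0.377 at RT and from 0.406 to 0.597 after cold exposure, while Mccc1/Mccc2 lies between 0.411 and 0.475 in every library.

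The regulators of the complex were the kinase Bckdk and the phosphatase Ppm1k. Bckdk was at 3363, 3366 and 2766 in Atf4WT iWAT at RT and at 3926, 3551 and 3222 after cold exposure, which overlapped (log2 0.17 ± 0.11, adjusted p = 0.26). The Atf4AKO libraries were at 3247, 3637 and 2883 at RT and at 3650.1, 3925 and 4082 after cold exposure. These groups were separated by a narrow margin, and the change of 0.26 ± 0.11 did not pass (adjusted p = 0.11). Ppm1k was at 597, 665 and 707 in Atf4WT iWAT at RT and at 499, 635 and 509 after cold exposure, again overlapping (log2 -0.27 ± 0.17, adjusted p = 0.27). In Atf4AKO iWAT Ppm1k was at 648, 653 and 851 at RT and at 389, 607 and 433 after cold exposure. All cold-exposed Atf4AKO libraries were lower, and Ppm1k fell 1.52-fold (log2 -0.60 ± 0.17, adjusted p = 0.027). The call was lost without Atf4AKO RT replicate 2 (log2 -0.48, adjusted p = 0.090), Atf4AKO cold replicate 0 (-0.47, 0.084) or Atf4AKO cold replicate 2 (-0.55, 0.078), and in a fit of only these 2 groups (0.067). The ratio of Bckdk to Ppm1k per kb was 6.37 to 9.18 in Atf4WT and 5.52 to 9.08 in Atf4AKO iWAT at RT, and 9.11 to 12.8 and 10.5 to 15.4 after cold exposure. The Atf4WT ranges overlapped and the Atf4AKO ranges did not.

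In the leucine branch, Mccc2 was at 5716, 5215 and 4597 in Atf4WT iWAT at RT and at 4260.0, 3915 and 4106 after cold exposure. All cold-exposed libraries were lower, and Mccc2 fell 1.26-fold (log2 -0.33 ± 0.10, adjusted p = 0.031). This call was lost without Atf4WT RT replicate 0 (log2 -0.26, adjusted p = 0.12), Atf4WT RT replicate 1 (-0.33, 0.082), Atf4WT cold replicate 1 (-0.30, 0.097) or Atf4WT cold replicate 2 (-0.34, 0.068). In Atf4AKO iWAT Mccc2 was at 5182, 6374 and 5412 at RT and at 4514, 5323 and 4929 after cold exposure, with overlapping groups (log2 -0.20 ± 0.10, adjusted p = 0.18). It passed there only after scaling every library to a common 75th percentile (-0.26, 0.049). Its partner Mccc1 was at 9796, 9469.6 and 7781 in Atf4WT iWAT at RT and at 7220.5, 7193 and 7631 after cold exposure. These groups did not overlap, but the log2 difference of -0.29 ± 0.13 did not pass (adjusted p = 0.11). It passed with limma's array weights (log2 -0.37, adjusted p = 0.022), after the same scaling (-0.32, 0.045) and without Atf4WT RT replicate 2 (-0.39, 0.048). In Atf4AKO iWAT Mccc1 differed by -0.22 ± 0.13 (adjusted p = 0.23). The ratio of Mccc1 to Mccc2 per kb stayed between 0.411 and 0.475 over all 12 libraries. Ivd, which acts before this carboxylase, was at 15569, 15230.3 and 15162 in Atf4WT iWAT at RT and at 12610.4, 15235 and 12235 after cold exposure, overlapping through replicate 1 of the cold group (log2 -0.20 ± 0.17, adjusted p = 0.39). In Atf4AKO iWAT it spanned 11892 to 18167 at RT and 11766 to 17008 after cold exposure (log2 -0.09 ± 0.17, adjusted p = 0.72).

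**Figure D3:**
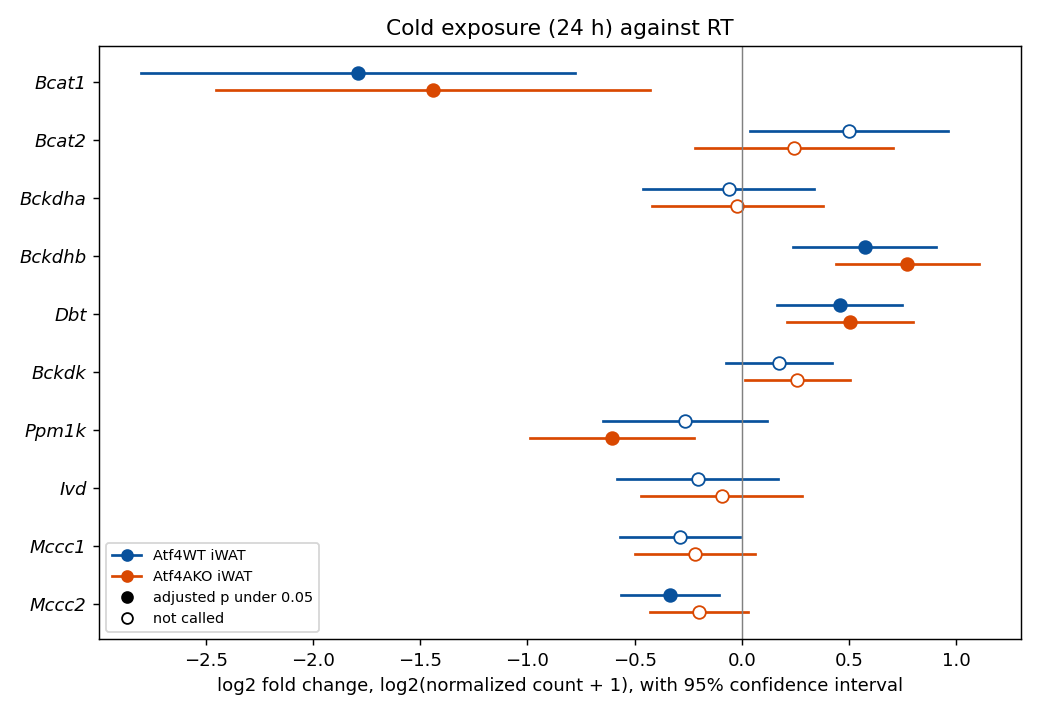
Log2 fold changes (x axis) of cold exposure against RT for the 10 members (y axis) in Atf4WT (blue) and Atf4AKO (orange) iWAT. Lines are 95% confidence intervals from limma, filled points had an adjusted p-value under 0.05; Bcat1 lies at -1.79 and -1.44 and Bckdhb at 0.57 and 0.77, while the intervals of Bckdha and Ivd span 0 in both genotypes.

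The libraries with high muscle markers, Atf4WT RT replicate 2 and Atf4WT cold replicate 0, sit on both sides of the Atf4WT cold comparison. With both left out, an alternative chosen after seeing the data, Bcat1 (log2 -1.96, adjusted p = 0.039) and Mccc2 (-0.45, 0.028) still passed, and Bckdhb (0.54, 0.065) and Dbt (0.41, 0.099) did not. With them left out 2 of the 10 members passed, in a fit of fewer libraries. The part of muscle and lymphocyte RNA in the Atf4WT values was not tested further.

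The pathway list held 23 further genes, of which all 23 were tested. In Atf4WT iWAT 5 rose and 1 fell after cold exposure, and in Atf4AKO iWAT 4 rose and 0 fell, which is 26.1% and 17.4% of the list beside 31.9% and 25.9% of all tested genes. The median log2 difference of the list was -0.03 in Atf4WT and 0.04 in Atf4AKO iWAT. Those that rose in both genotypes were Dld, the E3 component, Lipt1, a lipoyltransferase that attaches the lipoyl cofactor needed by E2 subunits, Slc25a44, the mitochondrial carrier of branched-chain amino acids, and Mcee, the epimerase of the propionyl-CoA route into which valine and isoleucine drain. Dld was at 10120.0, 11423 and 8003 in Atf4WT iWAT at RT and at 16633, 15296 and 17973 after cold exposure, without overlap, and rose 1.70-fold (log2 0.77 ± 0.15, adjusted p = 0.0034). In Atf4AKO iWAT Dld rose 1.77-fold (0.82 ± 0.15, adjusted p = 0.0028). Lipt1 rose 1.74-fold in Atf4WT (adjusted p = 0.0039) and 1.76-fold in Atf4AKO iWAT (adjusted p = 0.0041).

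Slc25a44 was at 3136, 3639.6 and 2941 in Atf4WT iWAT at RT and at 3965, 4568 and 4479.8 after cold exposure. In Atf4AKO iWAT it was at 3055, 3559.6 and 3271 at RT and at 4487, 5237 and 5068 after cold exposure. The groups were apart in both genotypes, with rises of 1.34-fold in Atf4WT (log2 0.42 ± 0.10, adjusted p = 0.0094) and of 0.58 ± 0.10 on the log2 scale in Atf4AKO iWAT (adjusted p = 0.0023). Mcee rose 1.36-fold in Atf4WT (adjusted p = 0.046) and 1.40-fold in Atf4AKO iWAT (adjusted p = 0.040). Lias, which makes the lipoyl cofactor, rose in Atf4WT iWAT (log2 0.31 ± 0.11, adjusted p = 0.044) and had nearly the same difference in Atf4AKO iWAT (0.31 ± 0.11), where it just missed the threshold (adjusted p = 0.051). Hlcs, the ligase that attaches biotin to carboxylases such as the one formed by Mccc1 and Mccc2, was the gene that fell in Atf4WT iWAT, from 599.6 to 650.5 at RT to 366 to 488 after cold exposure (log2 -0.58 ± 0.16, adjusted p = 0.019), and differed by -0.41 ± 0.16 in Atf4AKO iWAT (adjusted p = 0.086). The calls of Dld, Lipt1 and Slc25a44 held in both genotypes in each of the alternative fits. That of Hlcs was lost without Atf4WT RT replicate 0 (log2 -0.55, adjusted p = 0.061), without Atf4WT cold replicate 1 (-0.48, 0.072) and without both libraries with high muscle markers (-0.56, 0.086). Those of Mcee and Lias were lost in 9 and 10 of the 23 alternative fits in Atf4WT iWAT (adjusted p up to 0.21 and 0.25), and that of Mcee in 7 of 22 in Atf4AKO iWAT (up to 0.14). Within the groups compared, the Atf4WT call of Mcee was lost without RT replicate 0 (0.094) or 2 (0.14) or without cold replicate 0 (0.087), 1 (0.14) or 2 (0.055), and that of Lias without RT replicate 0 (0.097) or 2 (0.15) or without cold replicate 0 (0.10) or 1 (0.14). The Atf4AKO call of Mcee was lost without RT replicate 0 (0.12) or 2 (0.10) or without cold replicate 1 (0.14) or 2 (0.060). The remaining 17 genes of the list, among them the propionyl-CoA carboxylase subunits Pcca and Pccb and the dehydrogenases Acadsb and Acad8 of the isoleucine and valine branches, did not pass in either genotype.

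**Figure D4:**
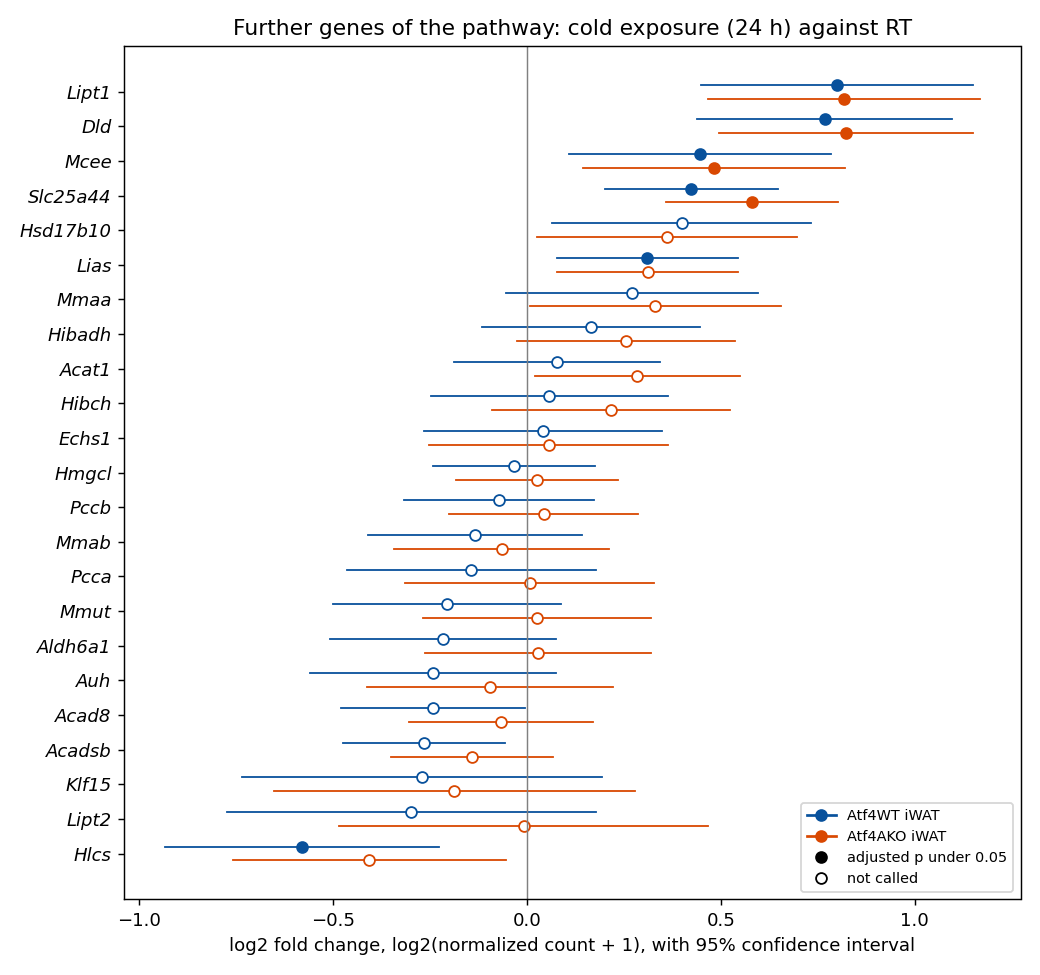
Log2 fold changes (x axis) of cold exposure against RT for the 23 further genes of the pathway (y axis) in Atf4WT (blue) and Atf4AKO (orange) iWAT. Lines are 95% confidence intervals from limma and filled points had an adjusted p-value under 0.05; Lipt1 and Dld lie between 0.77 and 0.82 in both genotypes and Hlcs lies at -0.58 and -0.41.

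To ask whether adipocyte Atf4 affects these genes, Atf4AKO was compared with Atf4WT iWAT, at RT and after cold exposure. These comparisons share their libraries with the cold comparisons above and are given as values of their own. After cold exposure 0 of the 10 members passed in limma, beside 0.0298% of all tested genes (4 genes). It was also 0 of 10 with edgeR, which called 3 of these genes, and with DESeq2, which called 582 of them, so the number of genes called over the whole table depended strongly on the test. At an unadjusted p-value under 0.05 there was 1 member, Mccc2. It was at 4260.0, 3915 and 4106 in Atf4WT and at 4514, 5323 and 4929 in Atf4AKO iWAT after cold exposure, without overlap, with a log2 difference of 0.26 ± 0.10 (95% confidence interval 0.03 to 0.49, adjusted p = 0.33). Mccc2 was the only member whose groups did not overlap there, against 16.5% of all tested genes. Of the others, Bckdhb differed by 0.23 (-0.10 to 0.57), Dbt by 0.15 (-0.14 to 0.44), Mccc1 by 0.20 (-0.08 to 0.48) and Ppm1k by -0.22 (-0.60 to 0.16). For Bcat1 the interval of -0.94 to 1.09 was wide, and its difference of 0.08 changed to -0.54 without Atf4AKO cold replicate 0 (adjusted p = 0.46). Of the members 8 had a positive and 2 a negative difference, with a median of 0.12, and of the 23 further genes 23 had a positive difference, with a median of 0.16. Over all tested genes 59.3% of the differences were positive, with a median of 0.05. In the same libraries the T cell markers summed to 884 to 7135 in Atf4WT and 175 to 433 in Atf4AKO iWAT, the B cell markers to 3017 to 10464 and 66.9 to 261, and the white adipocyte markers to 654724 to 1004589 and 799943 to 1121899, and the part of these cells in the differences was not tested. Of the further genes 0 passed in limma, with edgeR or with DESeq2, and 0 had an unadjusted p-value under 0.05.

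At RT 0 of the 10 members passed in limma, with edgeR or with DESeq2, beside 0.00746% of all tested genes (1 gene), and 0 had an unadjusted p-value under 0.05. The libraries of the genotypes overlapped for each of the 10 members, while they did not for 6.30% of all tested genes. The log2 differences ran from -0.27 for Bcat1 (95% confidence interval -1.28 to 0.74) to 0.18 for Bcat2 (-0.28 to 0.64). The intervals were narrower for Mccc2 (0.13, -0.10 to 0.36) and Bckdk (0.04, -0.21 to 0.29). An interval that spans 0 does not show equal levels.

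**Figure D5:**
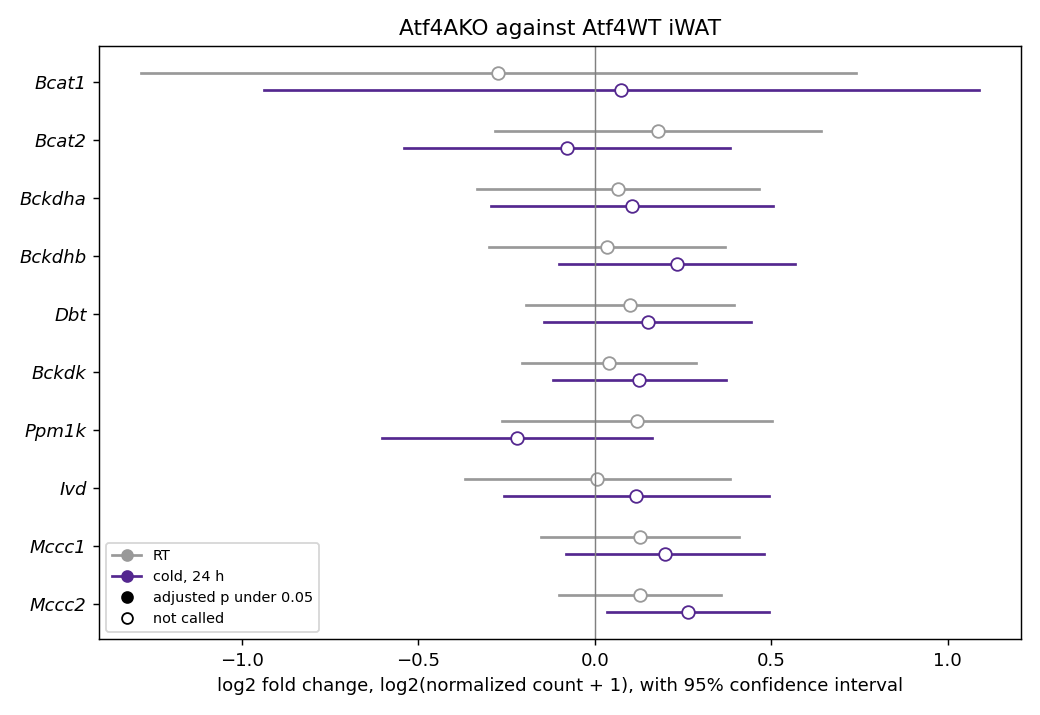
Log2 fold changes (x axis) of Atf4AKO against Atf4WT iWAT for the 10 members (y axis) at RT (grey) and after cold exposure (purple). Lines are 95% confidence intervals from limma and open points did not pass an adjusted p-value of 0.05; each interval spans 0 except that of Mccc2 after cold exposure, which runs from 0.03 to 0.49.

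The interaction of genotype and cold exposure was tested by itself, because Mccc2 passed only in Atf4WT iWAT and Ppm1k only in Atf4AKO iWAT. In limma 0 of the 10 members passed, as did 0% of all 13404 tested genes, and 0 members had an unadjusted p-value under 0.05. With edgeR and DESeq2 the count was also 0 of 10, while over all tested genes edgeR called 0 and DESeq2 called 128, and 928 genes had an unadjusted p-value under 0.05 in limma. The cold response of Ppm1k was lower in Atf4AKO than in Atf4WT iWAT by -0.34 (95% confidence interval -0.88 to 0.20, adjusted p = 0.98), and that of Mccc2 was higher by 0.14 (-0.19 to 0.46, adjusted p = 0.996). For Bckdhb the difference was 0.20 (-0.27 to 0.67), for Dbt 0.05 (-0.36 to 0.47), for Bcat2 -0.26 (-0.91 to 0.39) and for Bcat1 0.35 (-1.08 to 1.78). The calls in a single genotype are therefore not shown to differ between the genotypes.

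Levels were compared between genes in normalized counts per kb of merged GENCODE exons. Merged exons join all annotated transcripts of a gene, so the order and ratios between genes depend on these lengths. For example, Mccc1 (10.952 kb) had a higher mean count than Mccc2 (2.802 kb) in Atf4WT iWAT at RT (9015 against 5176), but a lower level per kb. In Atf4WT iWAT at RT the order was Bckdha (5348 ± 444, SD, n = 3), Bcat2 (2981 ± 408), Ivd (2783 ± 39.6), Mccc2 (1847 ± 199.97), Bckdhb (1725 ± 101), Dbt (1045 ± 101), Bckdk (857 ± 93.5), Mccc1 (823 ± 98.7), Ppm1k (109 ± 9.23) and Bcat1 (21.1 ± 1.85). Bcat2 overlapped Ivd, Mccc2 overlapped Bckdhb, and Bckdk overlapped Mccc1 in their libraries, and the other neighbours did not overlap. After cold exposure Bckdhb moved from rank 5 to rank 3, at 2579.6 ± 345 in Atf4WT and 3024 ± 316 in Atf4AKO iWAT, where it overlapped Ivd in both. The alpha subunit Bckdha stayed at rank 1 in all 4 groups, and Ppm1k and Bcat1 stayed at ranks 9 and 10. In cold-exposed Atf4WT iWAT the libraries of Bckdha overlapped those of Bcat2 (4228 to 6634 against 3542 to 5190). The phosphatase transcript was thus below the kinase transcript per length in every group, and the cytosolic aminotransferase far below the mitochondrial one, with a Bcat2 to Bcat1 ratio of 118 to 301 over the RT libraries and 228 to 1536 over the cold-exposed libraries.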

How the data were processed

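RNA-seq libraries of iWAT in 4 groups of 3 biological replicates were assigned by genotype, treatment and replicate number as labelled, and all 12 were used (0 columns were left out). The deposited values are a normalized signal: per-gene read counts scaled by the authors with a DESeq2 size factor for each library. According to the study's methods and the labels, reads of strand-specific libraries were mapped with STAR to mm10, and uniquely mapped ones were counted with featureCounts. Tool versions are not given in the sources used here. Division by a library's smallest value returned whole reads within 0.001 for 100% of values. Over the listed genes these were 25719476 to 29105147 reads per library.

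Differences were tested with limma 3.58.1 (lmFit, eBayes with a trend; R 4.3.3) on log2(normalized count + 1), which understates fold changes of low genes. The model held 4 group means and no covariate and covered 13404 genes, those averaging 10 or more over the 12 libraries. P-values are two-sided and were adjusted across these genes (Benjamini-Hochberg). The labels call the replicates biological and say nothing of litters or cages. As alternatives, pseudocounts of 0.5 and 5, other filters on low values (none, or a mean of 50), scaling to a common 75th percentile, array weights, a replicate block, a fit of only the 2 groups compared, omission of each library, and edgeR 4.0.16 (quasi-likelihood) or DESeq2 1.42.0 on the whole reads were run, as was the study's threshold (fold change over 1.5 and unadjusted p under 0.05). The tests were first run on simulated reads in which 200 genes changed 2-fold in the Atf4WT cold comparison. At an adjusted p-value under 0.05, limma recovered 69.5% of them with 4 false calls, edgeR 68.5% with 5 and DESeq2 78.5% with 32. Smaller changes were not simulated. The 200 changed genes were far fewer than those called in the real cold comparisons, so these rates do not carry over to them.

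The text names the 10 members, Atf4 and Ucp1, up to 6 called further pathway genes per comparison in order of fold, and the 3 genes closest to Bcat1 and to Bcat2. Pcca, Pccb, Acadsb and Acad8 were added after their values were seen. The members, lists and tests were chosen with earlier results of these data known. Of the marker lists, endothelium (5 of 5 listed) and epithelium (1 of 7) sums were 15299 to 21244 and 6.80 to 34.6 normalized counts, and the 6 thermogenic adipocyte markers summed to 6441 to 9362 at RT and 105682 to 168900 after cold exposure.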

Additional observations from a re-analysis of the deposited data

How the results depend on the processing

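The number of members called depended on the libraries and on the threshold. In Atf4WT iWAT 4 members were called after cold exposure, and 1 to 5 when each library was left out in turn, with 1 without Atf4WT cold replicate 1 and 2 each without Atf4WT RT replicate 0 or Atf4WT cold replicate 2. The count was 2 without both libraries with high muscle markers, an alternative chosen after seeing the data, and 1 (Bcat1) at the study's threshold. In Atf4AKO iWAT 4 were called, and 1 to 4 on leaving out libraries, with 1 each without Atf4AKO RT replicate 2 or Atf4AKO cold replicate 2 and 2 each without Atf4AKO RT replicate 0 or Atf4AKO cold replicate 1. A fit of only these 2 groups, with fewer libraries for the spread, called 1 (Bckdhb). The other alternatives called 4 or 5 members in Atf4WT and 3 to 5 in Atf4AKO iWAT. In the comparisons of genotypes and in their interaction 0 members were called in each alternative.

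Same-numbered libraries of different groups deviated from their group means with correlations of -0.19 to 0.39. They were 0.20 to 0.39 for replicate 1 and -0.18 to 0.04 for replicate 0. For replicate 2 they were 0.31 and 0.37 between genotypes, and 0.09 and -0.19 between RT and cold exposure. Values for differently numbered libraries are not given, so these cannot show whether the numbers are pairs. The main fit did not take them as pairs. With the replicate block 4 members were called in each cold comparison and 0 in the others, and 10 instead of 6 further pathway genes in Atf4WT iWAT. The latter count was 3 without Atf4WT RT replicate 0 or Atf4WT cold replicate 1, 3 to 7 over all libraries left out in turn, and 2 at the study's threshold. In Atf4AKO iWAT it was 4, with 3 to 6 on leaving out libraries and 2 at the study's threshold.

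Signs changed only in uncalled differences. On leaving out libraries Bckdha ran from -0.25 to 0.077 in the Atf4WT and -0.15 to 0.11 in the Atf4AKO cold comparison, and Ivd from -0.28 to 0.053 in the latter. Between genotypes Bcat1 ran from -0.54 to 0.62 after cold exposure and Bckdk from -0.054 to 0.12 at RT, and the interaction ran from -0.27 to 0.89 for Bcat1 and from -0.053 to 0.20 for Dbt. With array weights Bcat2 differed by -0.018 between genotypes at RT. The cause of these changes was not tested. Of 14 member differences between genotypes or between their cold responses whose values are not given in the text, 11 changed sign in some alternative, within -0.11 to 0.07, and 0 values passed the test. With 3 libraries a group, leaving out a single library ended 6 of the 8 member calls in some setting. Bcat1 had the lowest counts, down to 27.2 in a library.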
